A study of Mus musculus with 4 samples.

Results

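Cholangiocyte 1 is 1 of 21 named clusters of liver nuclei profiled by single-nucleus RNA-Seq (snRNA-Seq). Its members were the nuclei that carry this name in the deposited nucleus table, which are 76 of 5193 nuclei. All 76 came from mice labelled as hepatocyte-specific Nampt knockout (HNKO). Livers of 3 WT and 3 HNKO females on a C57BL6/BomTac background were sampled. HNKO mice (Alb-Cre Nampt cKO) carry floxed Nampt alleles and a Cre transgene that the albumin promoter switches on in hepatocytes, and WT mice (Nampt cKO) carry the floxed alleles without Cre. All were young adults when a purified control diet was started, and all had eaten it for several weeks. Nampt encodes the enzyme that starts the salvage of NAD from nicotinamide. The nuclei of each mouse were marked with a hashtag, an antibody that carries an oligonucleotide, and were pooled before sequencing, so that the 4 GEO samples are 2 RNA pools and 2 hashtag pools of all 6 mice and the mouse of a nucleus is known from its hashtag alone.

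Cholangiocytes are the epithelial cells that line the bile ducts. They carry a primary cilium that senses bile flow, they add bicarbonate and chloride to bile, and they are usually recognised by the keratins Krt7 and Krt19, the adhesion molecule Epcam and the transcription factor Sox9. In an injured liver, small ducts can multiply in a ductular reaction, and hepatocytes have been described that switch on biliary genes while keeping part of their own program.

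The labels of the mice were examined first. Nampt (chromosome 12, positions 32819545 to 32853349, plus strand, GRCm38) reached 84.1, 148 and 90.8 CPM (UMI counts scaled to an equal total per type) in the summed hepatocyte nuclei of HNKO mice 1, 2 and 3, and 84.8, 105 and 96.9 CPM in those of WT mice 1, 2 and 3. The genotypes overlapped, and counts of whole transcripts with introns do not show whether a floxed exon is present, so Nampt does not check the labels here. The mouse labelled HNKO 2 stood apart from the others of its genotype. It had 10 of its 819 hepatocyte nuclei (1.22%) in clusters named HNKO or Central HNKO, against 757 of 812 (93.2%) in HNKO mouse 1 and 842 of 847 (99.4%) in HNKO mouse 3. WT mice 1, 2 and 3 had 2, 4 and 3 such nuclei (0.356%, 0.561% and 0.457%). The same mouse had 1 Cholangiocyte 1 nucleus, and gene values below therefore come from HNKO mice 1 and 3 (n = 2 mice). Within Cholangiocyte 1, Nampt had 5 and 17 UMIs in these mice, 22.6 and 58.7 CPM, with log2 ratios to their hepatocytes of -1.64 and -0.55, and it was not called by the rule given below.

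Cholangiocyte 1 nuclei were counted in each mouse to ask whether the cluster was bound to a genotype. They were 30 of 1063 nuclei (2.82%, exact 95% binomial interval 1.91% to 4.00%) in HNKO mouse 1, 1 of 950 (0.105%, 0.00267% to 0.585%) in the mouse labelled HNKO 2 and 45 of 1049 (4.29%, 3.15% to 5.70%) in HNKO mouse 3. None was found among 629, 778 and 724 nuclei of WT mice 1, 2 and 3, which allows shares of up to 0.477%, 0.386% and 0.414%. These intervals and limits cover counting error only. The 3 HNKO mice lay above all WT mice, the mouse labelled HNKO 2 by 1 nucleus only, and that mouse lay within the limits that the WT counts allow.

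**Figure D1:**
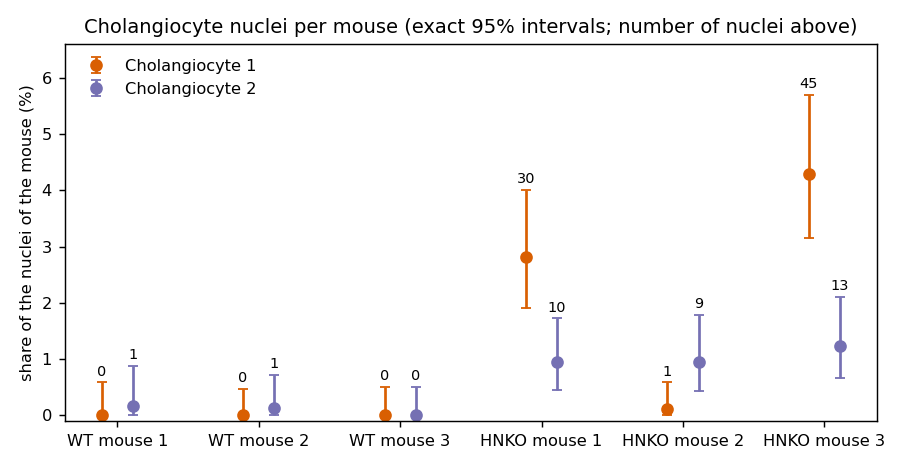
Share of nuclei of each mouse (y axis, percent) that belong to Cholangiocyte 1 or Cholangiocyte 2, with exact 95% binomial intervals and the number of nuclei above each point. Cholangiocyte 1 stands at 2.82% and 4.29% in HNKO mice 1 and 3 and at 0.105% or below in the other 4 mice, whereas Cholangiocyte 2 is at similar shares in all 3 HNKO mice.

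The mean share was 2.41% ± 2.12 (SD, n = 3) in HNKO mice and 0 in WT mice (exact permutation p = 0.1, two-sided, the smallest p that 3 mice against 3 allow). As a share of non-hepatocyte nuclei it was 11.7% ± 10.8 (SD, n = 3) against 0, with the same exact permutation p of 0.1. Without the mouse labelled HNKO 2 the difference between genotypes was 3.56 percentage points in place of 2.41. Cholangiocyte 2, the other cluster with a cholangiocyte name, did not share this spread: it had 10, 9 and 13 nuclei in HNKO mice 1, 2 and 3 and 1, 1 and 0 in WT mice, a mean of 1.04% ± 0.170 against 0.0958% ± 0.0844 (SD, n = 3 mice per genotype, exact permutation p = 0.1, two-sided). The plot of shares per mouse shows that the mouse labelled HNKO 2 lacked most of Cholangiocyte 1 but not Cholangiocyte 2. The assigned hashtag was the largest in 10 of 10, 7 of 9 and 10 of 13 Cholangiocyte 2 nuclei of HNKO mice 1, 2 and 3. In the mouse labelled HNKO 2 its median was 50 counts, against 37 for the next hashtag, so these assignments are less sure. Nothing in the labels says more of the 3 mice of a genotype than that they are separate animals. The permutation p of 0.1 reflects only that every HNKO share lay above every WT share, not how far the mice were spread. For Cholangiocyte 1 in the mouse labelled HNKO 2 this order rests on 1 nucleus, whose hashtag counts are given below.

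Depth was similar to that of hepatocytes. The 76 nuclei held a median of 4779.5 unique molecular identifiers (UMIs, counted molecules), from 1949 to 30537, and summed to 221247 UMIs in HNKO mouse 1 and 289364 in HNKO mouse 3. Their median per mouse was 5185.5 and 4412 UMIs in HNKO mice 1 and 3, against 5786 and 4800 in hepatocytes and 3260 and 2910 in endothelial nuclei. Droplets that hold a pair of nuclei tend to have many UMIs. More than 2 times the hepatocyte median was reached by 5 of 30 and 9 of 45 Cholangiocyte 1 nuclei and by 20.9% and 20.7% of hepatocyte nuclei in HNKO mice 1 and 3. The hashtag of the assigned mouse was the largest hashtag count in 30 of 30, 1 of 1 and 43 of 45 Cholangiocyte 1 nuclei of HNKO mice 1, 2 and 3. In the single nucleus of the mouse labelled HNKO 2 it had 96 counts, or 32.9%, and the next hashtag had 74. Hepatocytes of that mouse had medians of 220 counts, 66.8% and 38, so this 1 assignment was weaker. The median share of the assigned hashtag was 77.3% and 36.6% in Cholangiocyte 1 of HNKO mice 1 and 3, between that of hepatocytes (80.6% and 47.9%) and that of endothelial nuclei (62.8% and 27.9%). The median total of hashtag counts per nucleus was 373 and 178 in Cholangiocyte 1 and 433 and 224 in hepatocytes of HNKO mice 1 and 3, a difference of -53 ± 9.90 (SD, n = 2 mice). Hashtags cannot show droplets with nuclei of 1 mouse, and the part of such droplets in the mixed values below was not tested.

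The name was next checked against marker genes. UMIs were summed per mouse and type and expressed as CPM, a share of the RNA counted in that type, so that a lower share and less RNA per nucleus cannot be told apart. All 5 genes given as markers of the cluster were far above hepatocytes. Bicc1 (chromosome 10, positions 70922832 to 71159700, minus strand), an RNA-binding protein of ciliated epithelia, reached 2736 and 2819.8 CPM in Cholangiocyte 1 and 20.3 and 20.5 CPM in hepatocytes of HNKO mice 1 and 3. Glis3 (chromosome 19, positions 28258851 to 28680077, minus strand), a transcription factor whose loss causes cystic disease, reached 3426 and 2036 CPM against 16.8 and 21.7 CPM. The mean ratio was 135-fold for Bicc1 and 138-fold for Glis3, and neither gene overlapped between the types.

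Spp1 (chromosome 5, positions 104435118 to 104441050, plus strand), which encodes the secreted phosphoprotein osteopontin, was at 841 and 1431 CPM in Cholangiocyte 1 and at 24.7 and 35.8 CPM in hepatocytes. Dab1 (chromosome 4, positions 103619359 to 104744844, plus strand), an adaptor of the reelin receptors, was at 1142 and 1102 CPM against 7.81 and 8.15 CPM. Itga2 (chromosome 13, positions 114833081 to 114932100, minus strand), the integrin that binds collagen, was at 325 and 446 CPM against 4.82 and 3.09 CPM. The mean log2 ratios to hepatocytes were 5.20 ± 0.16 for Spp1, 7.11 ± 0.08 for Dab1 and 6.58 ± 0.74 for Itga2 (SD, n = 2 mice). In Cholangiocyte 2 the same 5 genes lay close to Cholangiocyte 1, with mean log2 ratios of Cholangiocyte 1 to Cholangiocyte 2 from -0.60 for Bicc1 and Glis3 to 0.96 for Dab1. Stellate nuclei also carried Bicc1, at 1225 and 1531 CPM, and Glis3, at 486 and 325 CPM, so that these genes alone did not set the cluster apart from every other type. In hepatocytes of the 3 WT mice Spp1 was at 9.93, 14.2 and 7.19 CPM and Bicc1 at 4.99, 7.74 and 3.10 CPM, below the hepatocytes of HNKO mice 1 and 3, and in the mouse labelled HNKO 2 they were at 6.18 and 4.94 CPM. Itga2 overlapped, at 2.41, 1.01 and 3.15 CPM in WT hepatocytes. The nuclei were clustered on these genes, and all values of the cluster against other nuclei are descriptions without a test.

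Most single nuclei carried the markers. After every nucleus had been thinned at random to 1000 UMIs, Bicc1 had a UMI in 63 of the 76 Cholangiocyte 1 nuclei (82.9%), Glis3 in 55 (72.4%), Spp1 in 40 (52.6%), Dab1 in 36 (47.4%) and Itga2 in 19 (25.0%). Endothelial nuclei, which should lack these genes, had shares of 1.8% for Bicc1, 3.5% for Glis3 and 0 of 113 for Spp1, which allows up to 2.65%. Without thinning, the share in Cholangiocyte 1 was 97.4% for Bicc1, 92.1% for Glis3, 90.8% for Spp1, 72.4% for Dab1 and 59.2% for Itga2, at median depths of 4779.5 UMIs in Cholangiocyte 1 and 3259 UMIs in endothelial nuclei, where the share was 3.5% for Bicc1 and 7.1% for Spp1. The single nucleus of the mouse labelled HNKO 2 held 4639 UMIs. It had 24 UMIs of Bicc1, 24 of Glis3, 4 of Spp1, 2 of Dab1 and 0 of Itga2, so that 4 of the 5 markers were found in it.

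The classical markers of bile duct cells were largely missing. Krt7 had 0 and 1 UMI and Krt19 had 0 and 0 UMIs in the sums of HNKO mice 1 and 3. Epcam had 1 and 3 UMIs. Cholangiocyte 2, with fewer nuclei, held 1 and 4 UMIs of Krt7, 1 and 1 of Krt19 and 0 and 5 of Epcam. These 3 genes are thus near or at 0 in 76 nuclei, and the name rests on the other genes of the program. Sox9, a transcription factor of bile duct cells, had 16 and 10 UMIs, at 72.3 and 34.6 CPM against 1.51 and 4.00 CPM in hepatocytes. A gene was called when it was higher, or lower, by more than 4 times in both mice, with 1 UMI added to each sum, and genes needed 20 UMIs over both mice in either type. By this rule 541 of 12783 genes (4.23%) were higher and 226 (1.77%) were lower than in hepatocytes. The counts of each list against hepatocytes, here and below, are to be read beside these shares. Of the list of 16 biliary identity genes, 8 could be compared, 5 were called higher (among them Sox9, Spp1, Cdh1 and Sox4) and 0 lower. The list had a median log2 ratio of 2.54 against 0.60 over all genes compared.

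Those counts depend on scaling. Of the called genes 70.5% were higher with scaling to the UMI total, whereas with TMM scaling 359 were higher and 357 lower (50.1% higher) and with RLE scaling 372 and 341 (52.2%). The median log2 ratio over all genes went from 0.60 to 0.20 and 0.24. Of the 541 higher genes, 305 had at least 20 UMIs in Cholangiocyte 1 and 13 had 3 or fewer. Of the 226 lower genes, 54 had 3 or fewer UMIs in Cholangiocyte 1. With the reference limited to hepatocyte nuclei outside the HNKO clusters (55 and 5 nuclei), 42 genes were higher and 249 lower among 4583 (14.4% of the called genes higher), and the log2 ratio of Spp1 was 1.75. Against all other nuclei outside both cholangiocyte clusters, 457 of 14042 genes (3.25%) were higher and 265 (1.89%) lower, among them all 5 markers on the higher side.

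**Figure D2:**
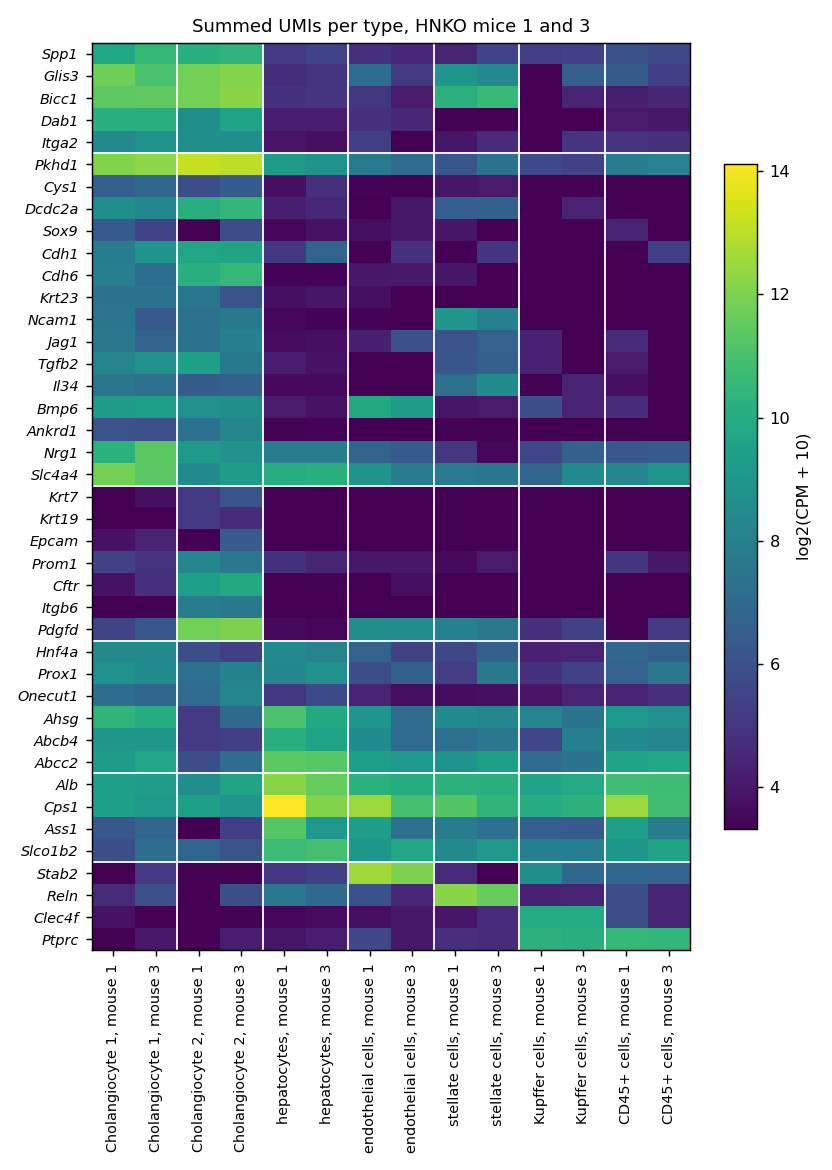
Levels of selected genes (rows) in HNKO mice 1 and 3 (columns, grouped by type), as log2(CPM + 10) of UMIs summed per type. White lines separate the given markers, further ductal genes, genes near 0 in Cholangiocyte 1, 2 blocks of hepatocyte genes (Hnf4a to Abcc2 and Alb to Slco1b2), and markers of other types. The first block is bright in both cholangiocyte clusters, with Bicc1 and Glis3 also in stellate nuclei. Bmp6 is also bright in endothelial nuclei and Ncam1 and Il34 in stellate nuclei, and the genes from Hnf4a to Abcc2 other than Onecut1 are brighter in Cholangiocyte 1 than in Cholangiocyte 2. Ahsg and Abcc2 are also bright in non-parenchymal nuclei.

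Genes were also ranked by the smaller of the ratios to hepatocytes in both mice. The first were Anxa3, an annexin, at 443 and 138 CPM against 0.829 and 0.364 CPM, and Mtcl1, a microtubule crosslinker, at 140.1 and 149 CPM against 0.301 and 0.455 CPM. The adhesion genes Cdh6, a cadherin, and Ctnnd2, a catenin of the delta family, followed with mean log2 ratios of 7.56 and 7.29. Myof, a membrane repair protein, Ptpn14, a phosphatase that restrains YAP, and Creb5, a transcription factor, were also among the 20 leading genes. So were Bmp6, a ligand of the BMP family, at 615 and 670 CPM against 7.18 and 3.82 CPM, and Ncam1, a neural adhesion molecule also used to mark reactive ductules, at 177 and 76.0 CPM against 0.955 and 0.819 CPM. The hepatocyte sums held 9 or fewer UMIs of Anxa3, Mtcl1, Cdh6, Myof, Ptpn14 and Ncam1 in each mouse, so that the ratios of these genes depend on the UMI added to each sum. The genes highest against all other nuclei included Mtcl1, Gm609, Dab1, Cdh6, Glis3, the YAP target Ankrd1, the kinase Pak3 and the surface protein Cd200.

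Genes of the primary cilium and of polycystic disease formed the largest ductal block. Of 16 genes in the list, 14 could be compared, 7 were called higher and 0 lower. All 14 were above hepatocytes in both mice, as was the median of all genes compared, at log2 ratios of 0.81 and 0.34. The median of the list was 2.40. The list summed to 1.14% and 1.06% of the UMIs of Cholangiocyte 1 against 0.0846% and 0.0813% in hepatocytes. Pkhd1, Bicc1 and Glis3 held 941, 605 and 758 of its 2531 UMIs in HNKO mouse 1. They held 1382, 816 and 589 of 3078 in HNKO mouse 3. Bicc1 and Glis3 are also markers given for the cluster. The called genes included Pkhd1, Bicc1, Glis3, Cys1, Dcdc2a and Kif3a. Pkhd1, which encodes fibrocystin and is mutated in recessive polycystic kidney and liver disease, was at 4252 and 4777 CPM against 588 and 456 CPM. Dcdc2a, a microtubule protein of the cilium, was at 402 and 314 CPM against 8.82 and 13.1 CPM. Cys1, which encodes cystin, was at 85.9 and 110.6 CPM against 3.16 and 18.3 CPM. Pkd2, a calcium channel of the cilium, was not called, at 163 and 225 CPM against 51.7 and 74.5 CPM. In Cholangiocyte 2 Pkhd1 was higher still, at 9233 and 8460.1 CPM, and no gene of the list was called between both clusters.

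Genes for the modification of bile took 0.388% and 0.283% of the UMIs in Cholangiocyte 1, 0.170% and 0.222% in Cholangiocyte 2 and 0.124% and 0.123% in hepatocytes. In Cholangiocyte 1, 1 gene (Slc4a4) held 821 of the 858 and 755 of the 819 UMIs of the list. In Cholangiocyte 2 it held 13.5 of 66.5 and 41.0 of 146. The rest of the list thus took a smaller share in Cholangiocyte 1 than in Cholangiocyte 2. Of 15 in the list, 5 could be compared with hepatocytes, with a median log2 ratio of 1.50, and 1, the sodium and glucose cotransporter Slc5a1, was called higher, on 3 and 9 UMIs. Cftr, the chloride channel of ducts, had 1 and 5 UMIs in Cholangiocyte 1 against 26 and 62 in the far smaller Cholangiocyte 2 sums, or 4.52 and 17.3 CPM against 664 and 943 CPM. Sctr, the secretin receptor, had 1 and 1 UMI, against 6 and 7. The bicarbonate cotransporter Slc4a4 went the other way between the clusters, at 3709 and 2609 CPM in Cholangiocyte 1, 345 and 624 CPM in Cholangiocyte 2 and 1052 and 1157 CPM in hepatocytes. It was called higher than in Cholangiocyte 2 but not than in hepatocytes. Slc10a2, the bile acid uptake transporter of cholangiocytes and ileum, had 19 and 40 UMIs, at 85.9 and 138 CPM against 157 and 29.8 CPM in hepatocytes, and its direction differed between the mice.

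Adhesion genes and keratins were present in part. Of 20 genes, 11 could be compared with hepatocytes, 6 were called higher (Krt23, Cdh1, Cdh6, Itga2, Itga3 and Lama5) and 0 lower, against 4.23% of all genes called higher. Krt23, a keratin induced in diseased liver, was at 163 and 166 CPM against 3.16 and 5.28 CPM. Cdh1, which encodes E-cadherin, was at 226 and 477 CPM against 23.6 and 101 CPM. Krt8 and Krt18, the keratin pair that hepatocytes also make, were not called: Krt8 was at 149 and 137 CPM against 152 and 43.4 CPM. Cdh2, which encodes the N-cadherin of hepatocytes and was chosen after its values were seen, was at 1212 and 1109 CPM against 1281 and 1192 CPM in hepatocytes and 179 and 137 CPM in Cholangiocyte 2. Cholangiocyte 1 thus carried E-cadherin above and N-cadherin near the hepatocyte level. Itgb6, an integrin subunit of reactive duct cells, had 0 UMIs in both mice against 9 and 13 UMIs in Cholangiocyte 2.

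Ductular reaction genes and the Notch and YAP-TEAD pathways moved unevenly. Their lists had median log2 ratios to hepatocytes of 1.01, 0.79 and 1.30, against 0.60 over all genes compared. Of all genes compared, 4.23% were called higher and 1.77% lower. Of 16 ductular reaction and progenitor genes, 11 could be compared, 4 were called higher (Ncam1, Tnfrsf12a, Ccl2 and Vcam1) and 1, the stem cell receptor Lgr5, lower. Tnfrsf12a, the receptor of the cytokine TWEAK, was at 49.7 and 31.1 CPM against 7.38 and 4.91 CPM. Ccl2, a chemokine that draws monocytes, was at 22.6 and 124 CPM against 0.151 and 1.46 CPM, on 5 and 36 UMIs. Prom1, a progenitor marker, had 7.5 and 6 UMIs and was lower than in Cholangiocyte 2. Of 16 Notch genes 9 could be compared and 2 were called higher, with 0 lower. Jag1, the ligand that instructs duct formation, was at 189.8 and 96.8 CPM against 2.56 and 3.28 CPM. Maml2, a coactivator of Notch, was the other, and only Jag1 was called against all other nuclei outside both cholangiocyte clusters. The Notch list took 0.183% and 0.141% of the UMIs of Cholangiocyte 1. This was above hepatocytes (0.0522% and 0.0643%) but below endothelial, stellate, Kupffer and CD45+ nuclei in both mice. Of 15 YAP-TEAD genes 13 could be compared, 5 were called higher (Tead4, Ccn1, Ccn2, Ankrd1 and Ajuba) and 0 lower. The regulator Yap1 itself was not called, at 131 and 194 CPM against 119.5 and 177 CPM, and Tead1 was at 854 and 629 CPM against 384 and 232 CPM.

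Secreted ligands that act on neighbouring cells were called higher than in hepatocytes in 6 of 11 comparable genes of a list of 20, with 0 lower, against 4.23% of all genes called higher. Nrg1, a ligand of the ERBB receptors, had the most UMIs of the 6, at 1175 and 2692 CPM against 231 and 231 CPM in hepatocytes and 567 and 461 CPM in Cholangiocyte 2. Tgfb2, which drives fibrosis, was at 289 and 429 CPM against 7.57 and 4.00 CPM. Pdgfc, which acts on stellate cells, was at 463 and 432 CPM against 80.7 and 86.6 CPM. Il34 and Csf1, the ligands of the macrophage receptor CSF1R, were both called higher than in hepatocytes. Il34 was at 181 and 145 CPM against 2.26 and 2.00 CPM, and Csf1 had 4 and 11 UMIs. Pdgfd, by contrast, was at 36.2 and 65.7 CPM in Cholangiocyte 1 and 3551 and 4052 CPM in Cholangiocyte 2, although it was above the 2.09 and 1.33 CPM of hepatocytes. Against all other nuclei outside both cholangiocyte clusters, 4 of 13 comparable ligands were called higher (Tgfb2, Pdgfc, Il34 and Nrg1) and 0 lower. Csf1 and Pdgfd were not called there.

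The hepatocyte program was then followed in the same nuclei. Of 20 metabolic enzymes, all 20 were below hepatocytes in both mice, 14 were called lower and 0 higher, with a median log2 ratio of -2.79. Over all genes compared the median was 0.81 and 0.34 in HNKO mice 1 and 3, and 1.77% were called lower. The share of all genes below hepatocytes in both mice was not computed. Cps1, the first enzyme of the urea cycle, was at 714 and 553 CPM against 17742 and 4274 CPM. Ass1, a further urea cycle enzyme, was at 67.8 and 105 CPM against 2487 and 529 CPM. G6pc, which releases glucose, was at 45.2 and 34.6 CPM against 1291 and 277 CPM. The cytochrome P450 genes Cyp2c38 and Cyp2b9 led the genes lowest against hepatocytes, with mean log2 ratios of -5.30 and -4.57. Hepatocytes of HNKO mouse 1 had more of several enzymes than those of HNKO mouse 3, and the ratios of these enzymes were lower there. Enzyme levels were at or below those of most non-parenchymal nuclei: the median over the list was 9.74% and 14.6% of the hepatocyte level in Cholangiocyte 1, 30.1% and 34.2% in endothelial nuclei and 8.93% and 15.1% in Kupffer nuclei. No enzyme was above all 4 of endothelial, stellate, Kupffer and CD45+ nuclei in both mice, and 8 (Cps1, G6pc, Tat, Hpd, Cyp3a11, Acsl1, Hal and Glul) were below all 4. The share of all genes above or below all 4 types was not computed. Such counts, here and for the hepatocyte lists below, therefore describe the members only.

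Transcription factors of hepatocytes were nearer to the hepatocyte level than enzymes. Of 14 in the list 2 were called lower (Nr1i3 and Ppara) and 0 higher, and the median over the list was 48.4% and 38.2% of the hepatocyte level, against 30.2% and 22.6% in endothelial nuclei, 12.1% and 37.7% in stellate nuclei, 6.08% and 10.6% in Kupffer nuclei, 31.5% and 42.0% in CD45+ nuclei and 10.5% and 9.82% in Cholangiocyte 2. The list median of Cholangiocyte 1 was thus above all 4 non-parenchymal types in HNKO mouse 1 but not in HNKO mouse 3. Hnf4a (chromosome 2, positions 163506808 to 163572910, plus strand), the central regulator of hepatocyte identity, was at 329 and 348 CPM in Cholangiocyte 1 and 335 and 267 CPM in hepatocytes. It was at 97.7 and 32.3 CPM in endothelial nuclei, and at 51.1 and 30.8 CPM in Cholangiocyte 2. Its log2 ratio to hepatocytes was 0.19 with scaling to the UMI total and -0.21 and -0.17 with TMM and RLE scaling, so that no direction can be given. Prox1, which hepatocytes use from early development, was at 425 and 369.8 CPM against 323 and 425 CPM. Onecut1, a regulator shared by hepatoblasts and ducts, was at 136 and 112 CPM against 23.7 and 44.3 CPM. These 3 genes were above all 4 non-parenchymal types in both mice. Hnf4a and Ppara, the receptor that drives fatty acid oxidation, were called higher than in Cholangiocyte 2, and Ppara lay between both references at 439.6 and 294 CPM, against 1893 and 2422 CPM in hepatocytes and 25.5 and 15.2 CPM in Cholangiocyte 2.

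Secreted plasma proteins and bile acid genes were split. Alb, the most abundant plasma protein, was at 673 and 649 CPM against 4619.8 and 3004 CPM in hepatocytes. At 14.6% and 21.6% of the hepatocyte level it lay below the sums of all 4 non-parenchymal types. Ahsg, a plasma glycoprotein made by hepatocytes, was at 1338 and 1013 CPM against 2104 and 944 CPM in hepatocytes, 507 and 135 CPM in endothelial nuclei and 25.5 and 122 CPM in Cholangiocyte 2. Trf, Ambp and C3 were with Ahsg above all 4 non-parenchymal types in both mice, and 5 of the 20 genes were below all 4. The median over the list was 36.4% and 39.9% in Cholangiocyte 1, 38.1% and 32.6% in endothelial nuclei and 49.6% and 57.9% in CD45+ nuclei, so that the list as a whole was not above the non-parenchymal types. Of 13 bile acid and canalicular genes, 5 were called lower (Cyp7a1, Slc10a1, Slco1b2, Abcb11 and Abcg5) and 0 higher. Cyp7a1, the rate-limiting enzyme of bile acid synthesis, had 2 and 1 UMIs. Abcb4, the canalicular phospholipid pump and one of 3 genes of this list above all 4 non-parenchymal types in both mice, was at 511 and 508 CPM against 1151 and 752 CPM in hepatocytes and 25.5 and 30.4 CPM in Cholangiocyte 2. Abcc2, the pump for conjugated bilirubin, was at 610.2 and 874 CPM against 2717 and 2499 CPM in hepatocytes and 51.1 and 137 CPM in Cholangiocyte 2. At 22.5% and 34.98% of the hepatocyte level, Abcc2 was below the sums of CD45+ nuclei (29.1% and 35.5%) in both mice, and so not above all 4 types.

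**Figure D3:**
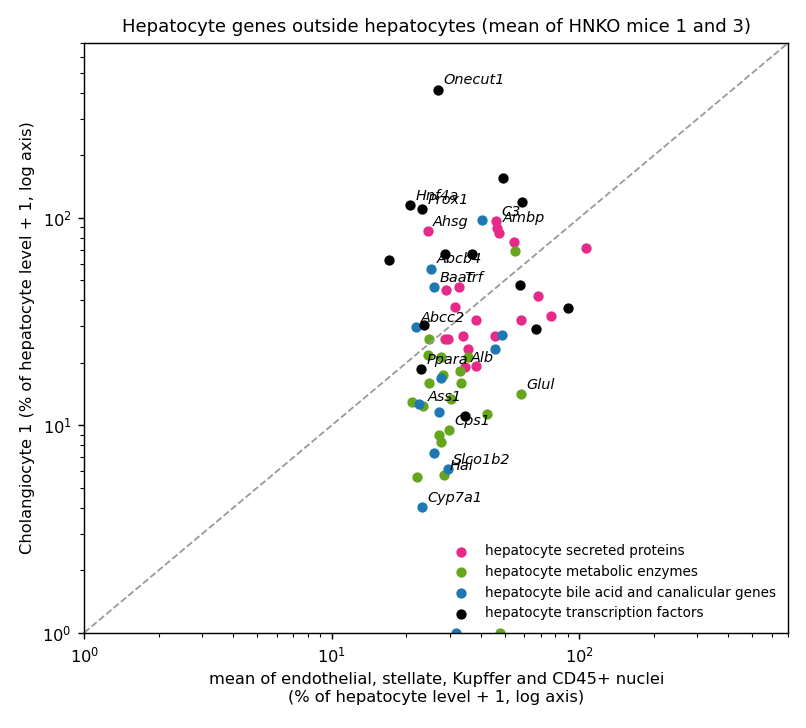
Each point is a hepatocyte gene. Its level in Cholangiocyte 1 (y axis) is set against the mean of endothelial, stellate, Kupffer and CD45+ nuclei (x axis), both as percent of the level in hepatocytes plus 1, mean of HNKO mice 1 and 3, on log axes with a dashed line of equal values. Hnf4a, Prox1, Onecut1, Ahsg and Abcb4 lie above the line, and Cps1, Ass1, Hal, Glul and Slco1b2 lie below it.

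RNA from burst cells can give any nucleus some hepatocyte transcripts, and the non-parenchymal types were read as that background. The plot of hepatocyte genes outside hepatocytes shows that the genes of the cluster did not have 1 common ratio to it. Sums can be carried by a few nuclei, so the same lists were also read nucleus by nucleus at 1000 UMIs. Enzymes took a median of 0.2% of the UMIs in Cholangiocyte 1 of both mice, the same as in endothelial nuclei, against 3.6% and 1.2% in hepatocytes. Plasma proteins took 0.45% and 0.3% in Cholangiocyte 1, 0.2% and 0.2% in endothelial nuclei, 0.35% and 0.4% in CD45+ nuclei and 1.3% and 1.1% in hepatocytes. Transcription factors took 0.1% and 0.2% in Cholangiocyte 1 and the same in stellate nuclei, 0% and 0% in endothelial nuclei and 0.4% and 0.5% in hepatocytes. Bile acid genes took 0.1% and 0.1% in Cholangiocyte 1 and the same in CD45+ nuclei, 0% and 0% in endothelial nuclei and 0.7% and 0.6% in hepatocytes. At 1000 UMIs, where 1 UMI is 0.1%, none of the 4 hepatocyte lists was thus above all 4 non-parenchymal types in both mice. Without thinning, plasma proteins took 0.414% and 0.363% in Cholangiocyte 1. CD45+ nuclei, the highest of the 4 types, had 0.284% and 0.294%. Bile acid genes took 0.119% and 0.154%, against 0.0695% and 0.105% in CD45+ nuclei, again the highest. Plasma proteins and bile acid genes were then above all 4 types in both mice, and enzymes and transcription factors were not. A set of 33 ductal genes (markers, biliary identity and cilium lists together) took 1.55% and 1.3% in Cholangiocyte 1, 2.2% and 2.5% in Cholangiocyte 2 and 0.1% and 0.1% in hepatocytes. It was above the 95th percentile of hepatocytes in 28 of 30 and 43 of 45 Cholangiocyte 1 nuclei. The set holds the markers of the cluster, and the nuclei were clustered on such genes, so this count is a description and no test of identity.

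**Figure D4:**
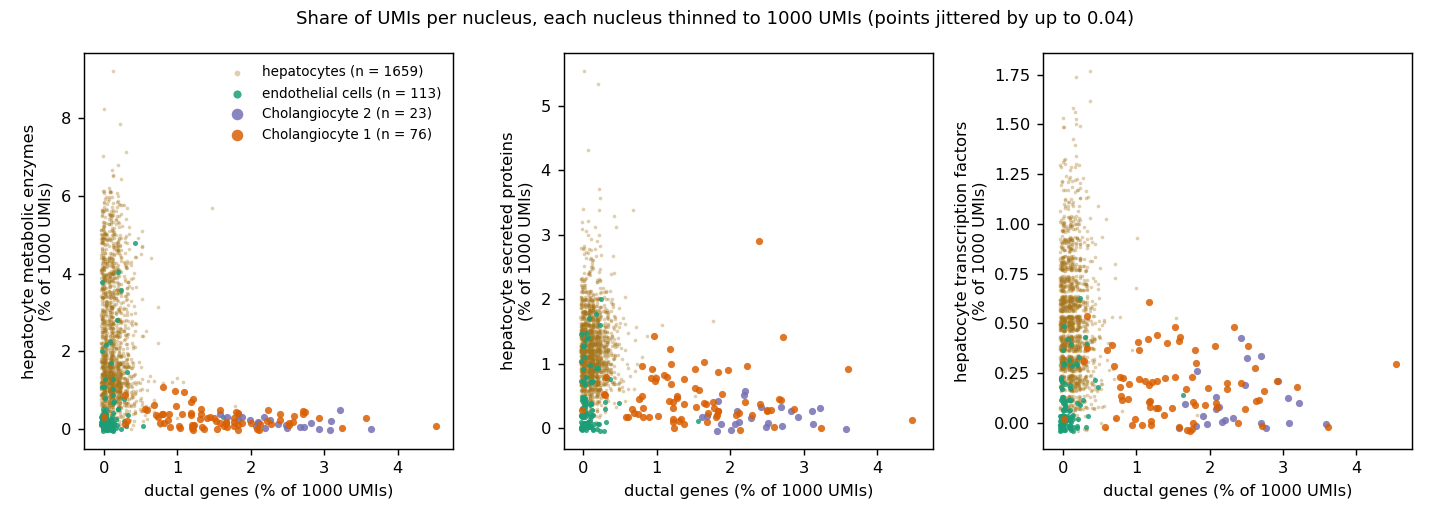
Each point is a nucleus thinned to 1000 UMIs. The x axis gives the percent of UMIs from ductal genes and the y axes give those from hepatocyte enzymes, plasma proteins and transcription factors. Cholangiocyte 1 lies to the right of hepatocytes, mostly to the left of Cholangiocyte 2, and low on the enzyme axis. On the transcription factor axis its median of 0.1% and 0.2% lies below the 0.4% and 0.5% of hepatocytes.

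Ductal and hepatocyte transcripts were found in the same nuclei. At 1000 UMIs, Bicc1 or Glis3 was found in 71 of 76 Cholangiocyte 1 nuclei (93.4%), and 32 of the 76 (42.1%) also had Hnf4a or Prox1. Hnf4a or Prox1 was found in 44.7% of Cholangiocyte 1 nuclei, 46.9% of hepatocyte nuclei, 17.4% of the 23 Cholangiocyte 2 nuclei and 7.96% of the 113 endothelial nuclei. Ahsg was found in 53.9% of Cholangiocyte 1 nuclei, 70.2% of hepatocyte nuclei, 8.70% of Cholangiocyte 2 nuclei and 14.2% of endothelial nuclei. Cps1 and Alb gave another order. Cps1 was found in 46.1% of Cholangiocyte 1 and 60.2% of endothelial nuclei, and Alb in 42.1% of Cholangiocyte 1, 52.2% of Cholangiocyte 2 and 48.7% of endothelial nuclei, so that neither was above the background of free RNA. Endothelial nuclei were the only non-parenchymal type counted in this way, and CD45+ nuclei had more of Hnf4a, Prox1 and Ahsg. Their summed levels in HNKO mice 1 and 3 were 32.9% and 32.1%, 29.4% and 43.2%, and 25.5% and 44.1% of hepatocytes. Those of endothelial nuclei were 29.2% and 12.1%, 15.6% and 21.1%, and 24.1% and 14.2%. All were below Cholangiocyte 1. Without thinning, 61 of 76 nuclei (80.3%) had both Bicc1 or Glis3 and Hnf4a or Prox1, against 65.2% of Cholangiocyte 2, 12.1% of hepatocyte and 4.42% of endothelial nuclei, whose median depths were 4349, 5291 and 3259 UMIs. The plot of single nuclei shows the spread of both programs over the 76. Over these nuclei the ductal share and the bile acid gene share had Spearman's rho of -0.33 after thinning and -0.62 without it (n = 76 nuclei of 3 mice, which share libraries and depth, and both shares are parts of the same total). The other lists had rho of -0.26 for enzymes, -0.09 for plasma proteins and -0.06 for transcription factors after thinning.

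Cholangiocyte 1 was last set against Cholangiocyte 2 gene by gene. Of 4443 genes with 20 UMIs in either sum, 51 (1.15%) were higher and 89 (2.00%) lower in Cholangiocyte 1 in both mice. The leading higher genes were Robo1, a receptor of axon guidance, at 686 and 481 CPM against 0 UMIs in both mice, and Chsy3, a chondroitin synthase, at 2345 and 1263 CPM against 3 and 5 UMIs. They were followed by Abcb4, Ppara, Ahsg, Abca6, a lipid transporter, and Mlxipl, the glucose-responsive factor ChREBP. Robo1 was at 629 and 639 CPM in hepatocytes and Chsy3 at 1109.8 and 1116 CPM, close to Cholangiocyte 1. The leading lower genes included Pdgfd, Itgb6, Cftr, the guidance ligand Slit2 and the RNA-binding protein Rbms3, which was at 13.6 and 34.6 CPM against 2595 and 2873 CPM.

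**Figure D5:**
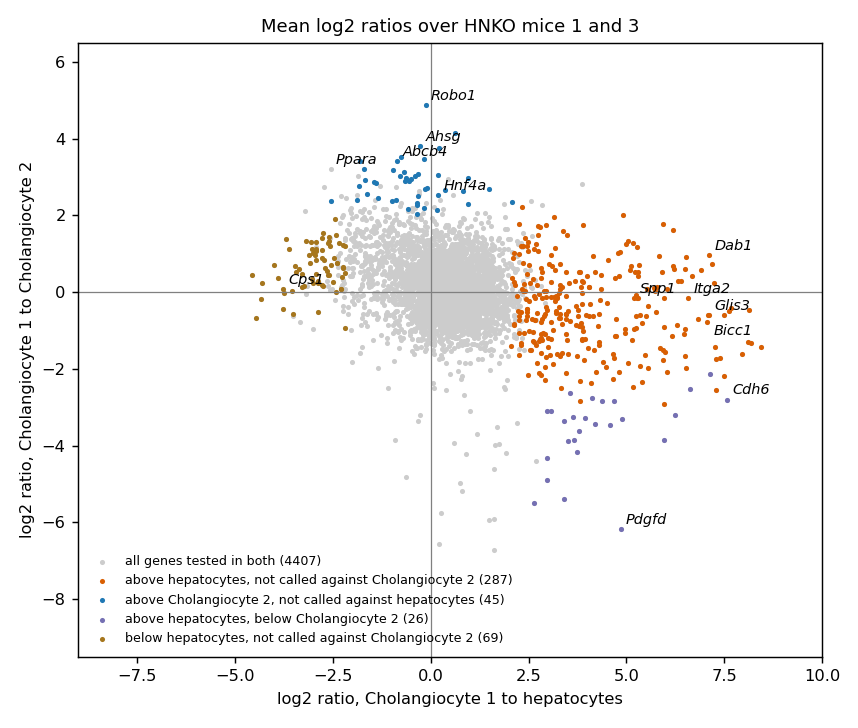
Mean log2 ratio of each gene over HNKO mice 1 and 3, against hepatocytes (x axis) and against Cholangiocyte 2 (y axis), for genes comparable with both. Colours give the call pattern with the number of genes: 287 genes are above hepatocytes and not called against Cholangiocyte 2, and 45 are above Cholangiocyte 2 and not called against hepatocytes.

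Set against both references at once, 4407 genes could be compared. A first group of 287 genes was above hepatocytes and not called against Cholangiocyte 2, with Bicc1, Glis3, Spp1, Dab1 and Itga2 among them. A second group of 45 genes was above Cholangiocyte 2 and not called against hepatocytes, with Hnf4a, Ahsg, Abcb4 and Robo1 among them. A further group of 26 genes lay between, above hepatocytes and below Cholangiocyte 2, and held Cdh6, Maml2, Pdgfd and the receptor Igf1r. Another group of 69 genes was below hepatocytes and not called against Cholangiocyte 2, with Alb and Cps1 among them, and 3 genes (A1cf, Arg1 and Ppara) were below hepatocytes and above Cholangiocyte 2. Above both were 3 genes, ENSMUSG00000089940, Pde10a, a phosphodiesterase, and Pvt1, a long noncoding RNA. Igf1r and the genes of these last patterns other than Ppara were chosen after their values were seen. Pvt1 was at 660.3 and 556 CPM in Cholangiocyte 1, 99.6 and 107 CPM in hepatocytes and 102 and 91.2 CPM in Cholangiocyte 2. The comparison with Cholangiocyte 2 rests on 10 and 13 nuclei with 39148 and 65777 UMIs, and both ratios share the Cholangiocyte 1 sums.

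The likeness of whole profiles was described by Pearson's r of log2(CPM + 10) across genes, after all sums of a mouse had been thinned to the same depth. In HNKO mouse 1 Cholangiocyte 1 was most like Cholangiocyte 2 (r = 0.643), followed by the hepatocyte cluster HNKO 1 (r = 0.552) and Hepatocytes 2 (r = 0.535), over 3694 genes. In HNKO mouse 3 the hepatocyte cluster HNKO 2 and Cholangiocyte 2 were level (both r = 0.657), followed by HNKO 3 (r = 0.588), over 5419 genes. Kupffer nuclei were the least like in both mice (r = 0.25 and 0.378). Genes are not independent replicates, and clusters of few nuclei are noisier. Hepatocyte clusters of HNKO mouse 3 differed in ductal genes: Cdh1 was at 151 CPM in HNKO 2 and 26.4 CPM in HNKO 3, Nrg1 at 352 and 43.6 CPM, and Osbpl3, a lipid-binding protein chosen after its values were seen, at 71.7 and 4.97 CPM, against 1254 CPM of Osbpl3 in Cholangiocyte 1 of that mouse.

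Markers of other liver cells were rare in the cluster. The 8 endothelial markers summed to 0 and 19.6 UMIs in HNKO mice 1 and 3 (0% and 0.00676% of UMIs), the 8 stellate markers to 5.32 and 19.1 UMIs, the 8 Kupffer markers to 16 and 7.5 UMIs, the 8 leukocyte markers to 5 and 5 UMIs and the 7 mesothelial markers to 3 and 3 UMIs. Stab2, an endothelial scavenger receptor, had 0 and 7 UMIs, and Reln, a stellate gene, 3.32 and 15.1 UMIs. No UMI of the endothelial gene Flt1, the stellate gene Hgf or the Kupffer gene Cd5l was counted in either mouse. Endothelial markers were without a UMI in 64 of the 76 nuclei, stellate markers in 65 and Kupffer markers in 61. Against hepatocytes 1 gene of these lists was called higher, Cd74, the invariant chain of antigen presentation, on 2 and 2 UMIs. Against all other nuclei 7 were called lower (Stab2, Ptprb, Flt1, Hgf, Cd5l, Ptprc and Bank1) and 0 higher.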

How the data were processed

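Nuclei of 6 livers were pooled by hashtag and sequenced as 2 RNA and 2 hashtag libraries. The authors deposited a gene by nucleus matrix of estimated counts of UMIs, spliced and unspliced together, made with Alevin on GRCm38 with GENCODE M25, and a nucleus table with their cluster names, made with Seurat, and the mouse of each nucleus. The submitters' processing notes also name Cell Ranger 5.0.1. Because of the estimation, 10.1% of values above 0 were not whole within 0.001. The deposited hashtag counts were used for assignment checks, and the authors' SCTransform values were not used. Doublets were not called again. Totals per mouse ran from 3766530 to 7763270 UMIs.

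Estimated counts were summed per mouse and type where a mouse had at least 10 nuclei, and ratios were taken within a mouse as log2 of CPM with 1 UMI added to each sum, so that the pairing is by animal. Ratios of low genes are raised by this addition where the sums differ in depth. Genes with 20 UMIs in either type over both mice were compared and were called past 4-fold in every mouse, without a p-value. Named genes were list members and the leading genes by the ratio nearest to 0. Members and lists were chosen with earlier results of these data known. Shares of nuclei were compared over 3 mice per genotype by exact permutation, two-sided. Detection was read after thinning to 1000 UMIs, with limits from 3 counts and 95% intervals. Coordinates are from GENCODE annotation of GRCm38. Alternatives were other scalings, priors, filters and references, leaving out a mouse, and unthinned values. Scripts were tested on simulated data and used Python 3.11.15, numpy 2.4.6, scipy 1.17.1, pandas 2.3.3, matplotlib 3.10.9, R 4.3.3 and edgeR 4.0.16, the last for TMM and RLE factors. Some list members are not reported here by name.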

Additional observations from a re-analysis of the deposited data

How the results depend on the processing

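Each WT mouse had 0 Cholangiocyte 1 nuclei, so that leaving out a mouse or changing the denominator could not reverse the higher share in HNKO mice. The difference ran from 1.46 to 3.56 percentage points when 1 HNKO mouse was left out, and the lowest value was that without HNKO mouse 3. With both cholangiocyte clusters together it was 3.35 percentage points. Of the 541 higher and 226 lower genes against hepatocytes, TMM gave 359 and 357, RLE gave 341 lower, and a prior of 0.25 UMI gave 457 lower. Without the count filter 11271 genes were higher, because the added UMI acts on sums of unequal depth. Hepatocytes outside the HNKO clusters as reference gave 42 higher, with fewer genes compared, and hepatocyte sums thinned to the Cholangiocyte 1 total gave 240 higher. Leaving out 1 mouse gave 455 to 873 higher and 439 to 472 lower, against all other nuclei 440 to 834 and 511 to 539, and against Cholangiocyte 2 139 to 203 and 42 to 74. A call then needs 1 mouse in place of 2. Without the replicate block, which pairs types within a mouse, the sums over mice gave 790 higher and 503 lower.

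The level of plasma protein genes, 38.1% of hepatocytes, was 34.8% after thinning, 42.1% without Alb and Apob and 33.1% as a median over nuclei. That of enzymes, 12.2%, was 15.8% after thinning. That of bile acid genes, 11.7%, was 22.4% as a ratio of sums, 16.2% after thinning, 10.7% without the nuclei with the most UMIs and 19.9% as a median over nuclei. Without thinning, the median share per nucleus was 0.218% for enzymes and 0.136% for bile acid genes, in place of 0.2% and 0.1%. The causes were not tested. The thinned reference, the medians over nuclei and the left-out mice of the other references were chosen after seeing the data. Pools could not be taken alone, since the nucleus table does not tell them apart. Among the named genes and counts compared, 3 genes that were not called changed sign in some alternatives: Hnf4a and Prox1 (with TMM, -0.21 and -0.30 against hepatocytes) and Ahsg (0.11 without HNKO mouse 1). With 76 nuclei in 3 mice, genes with few UMIs are not resolved.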

Other observations

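Further gene groups were read against the 4.23% of all genes called higher and the 1.77% called lower than in hepatocytes, at which lists of this size hold few calls or none. Of 12 proliferation genes 5 could be compared and 0 were called, and the list summed to 5 and 4 UMIs in HNKO mice 1 and 3, with none in 72 of the 76 nuclei. Mki67, which marks cycling cells, had 1 and 0 UMIs. Of 10 senescence and p53 genes 7 could be compared and 0 were called. Mdm2, which degrades p53, was at 203 and 179.7 CPM against 56.8 and 103 CPM in hepatocytes, and Cdkn1a, the inhibitor p21, had 2 and 5 UMIs.

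Of 24 genes of NAD synthesis and use 21 could be compared, 0 were called higher and 2 lower. These were Tdo2 and Haao, enzymes of the route from tryptophan to NAD. Tdo2 was at 58.8 and 58.7 CPM in Cholangiocyte 1 against 1567 and 554 CPM in hepatocytes. Mitochondrially encoded transcripts took 0.202% and 0.222% of the UMIs in Cholangiocyte 1 and 0.193% and 0.183% in hepatocytes, and 0 of the 13 genes was called.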
